A study of Elaeis guineensis with 18 samples.

Results

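The genes described here were near silent in leaves of unstressed oil palm (Elaeis guineensis) seedlings and were read in every library of at least 1 abiotic stress. They were picked on raw read counts. A gene had at most 3 reads summed over the 3 control libraries and 20 or more reads in each of the 3 libraries of at least 1 stress, which is then said to switch the gene on. Of 30606 genes in the deposited tables, 5326 met the control criterion and 58 met both. Because the rule used the counts of stressed and control leaves, every level and fold of these genes against control is a description and carries no test.

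The 18 libraries come from the third leaf of seedlings of the Deli Dura background, with 3 libraries per group and 3 seedlings pooled for each. The seedlings were 6 months old at planting and were acclimatized for 1 month before treatment. All groups were treated for 2 weeks. Heat seedlings stood at 40 °C and cold seedlings at 10 °C, both with 200 mL of water a day. The other groups were kept at 28 °C: drought seedlings without water (0 mL), salinity seedlings with a daily 200 mL of 0.2 M NaCl, waterlogged seedlings with water standing 1 inch above the soil, and control seedlings with 200 mL of water. Each library thus mixes the seedlings of its pool, and the p-values below measure the spread between pools. A whole leaf is a mixture of cell types, so a larger share of cells that use a gene and more RNA per cell cannot be told apart. The tissue label was checked against 21 light-harvesting genes, which bind chlorophyll around the photosystems. Their mean FPKM (fragments per kilobase of gene, scaled to library size) in control leaves was 9.93 to 12197, with a median of 1454, against a median of 4.02 for all genes. Markers of other organs are not given, so these values bear on green tissue only.

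Plants keep many genes shut in unstressed leaves and transcribe them on demand. Heat shock proteins and other chaperones, which hold or refold damaged proteins, are the textbook case: in many plants some of them are barely transcribed at normal temperature. Water shortage and salt draw largely on signalling through the hormone abscisic acid, flooding on signalling through low oxygen and ethylene, and cold on its own set of regulators. Most of the genes below are known by number alone, since the paper and the gene table used here give a description or a process for only 14 of the 58.

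Heat switched on the most genes, 33 of the 58, followed by cold with 17, salinity with 15, drought with 13 and waterlogging with 9. The order after heat depended on scaling: with all counts scaled by TMM, edgeR's correction for library composition, heat had 25 genes, drought 11, salinity 10, waterlogging 10 and cold 4, the fewest, and with counts scaled to the median library total cold had 8. A single stress switched on 43 genes: 22 by heat, 12 by cold, 6 by salinity, 2 by waterlogging and 1 by drought. The other genes were on in 2 stresses (7 genes), 3 stresses (4 genes), 4 stresses (2 genes) or all 5 stresses (2 genes). Heat and drought together made the largest of these shared sets, with 3 genes. The sets of heat and cold, of heat, drought and salinity, of drought, salinity and waterlogging, and of the 4 stresses other than cold held 2 genes each, and the sets of drought and salinity and of waterlogging and cold held 1 each. In control leaves 21 of the 58 genes had 0 reads, 11 had 1 read, 9 had 2 reads and 17 had 3 reads over the group.

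**Figure D1:**
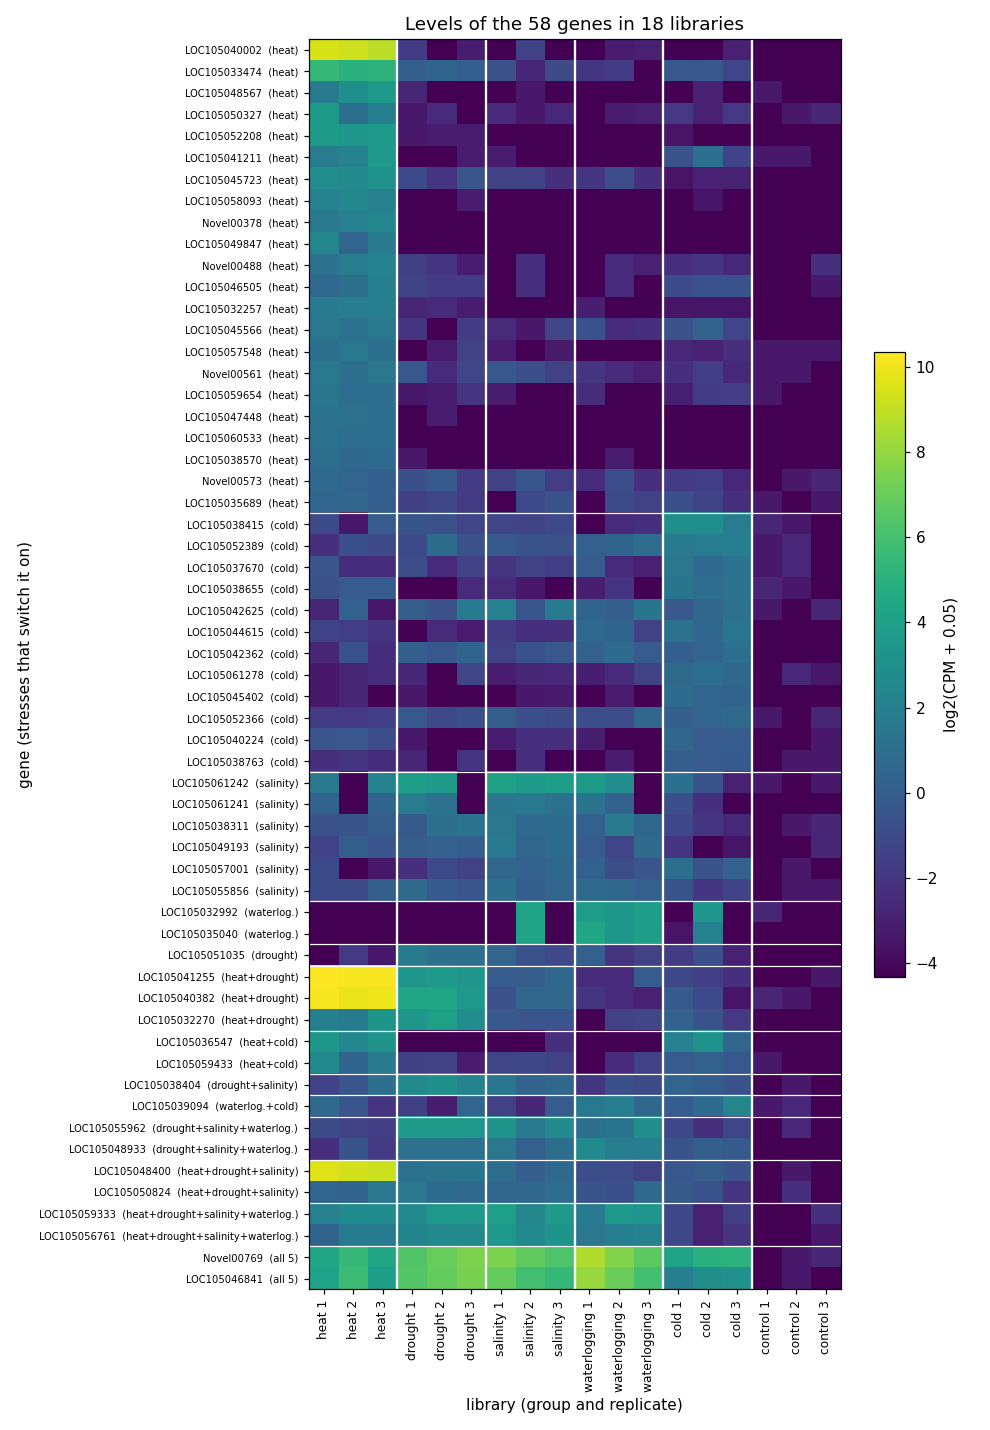
Levels of the 58 genes (one per line, with the stresses that switch each on) in the 18 libraries, as log2(CPM + 0.05), where CPM is the read count scaled to the TMM-adjusted library total. Colours from dark to yellow run from 0 reads to the highest level. The 4 top heat genes stand out in the 3 heat libraries, and the bottom pair is bright in all 15 stress libraries.

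The number of genes depends on depth and on the cut-offs. The groups held 63747404 reads (heat), 57105069 (drought), 61891252 (salinity), 53382708 (waterlogging), 58503826 (cold) and 53447460 (control). With the control cut-off left on raw reads and only the stress counts scaled by TMM, heat had 33 genes, waterlogging 16, drought 15, salinity 14 and cold 11. Just inside the stress cut-off were LOC105055856, with 32, 21 and 25 reads in salinity libraries and 2 reads in control, and LOC105035689, with 27, 30 and 22 reads in heat libraries and 2 reads in control. Just outside were LOC105036847, with 23, 19 and 19 reads in drought libraries and 0 in control, and LOC105061114, with 38, 28 and 19 reads in cold libraries and 3 in control. On the control side, LOC105040382 and Novel00769 lay at the limit of 3 reads. LOC105041497 (98, 94 and 80 reads in salinity libraries) and LOC105032798 (81, 79 and 108 reads in cold libraries, described by the study as an ADA2-like transcriptional adapter) lay just beyond it with 4. In all, 14 genes had 4 control reads and otherwise met the rule.

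The same rule was applied between every ordered pair of groups, to show how control leaves compare as the silent group. Of genes on in heat, 33 were near silent in control, against 1 gene on in control and near silent in heat. In cold the 2 counts were 17 and 7, in drought 13 and 3, in salinity 15 and 0, and in waterlogging, whose total depth was closest to that of control, 9 and 5. Heat was also the group with the most genes on relative to the other stresses: 23 genes on in heat were near silent in drought, 24 in salinity, 35 in waterlogging and 22 in cold. In the reverse direction these counts were 5, 1, 2 and 1. Between salinity and waterlogging no gene met the rule in either direction (0 and 0), and between salinity and drought 0 genes did with salinity on and 4 with drought on. Of genes on in cold, 13 were near silent in drought, 7 in salinity and 20 in waterlogging. These counts are descriptions and share libraries with each other. They rest on raw reads, and heat had the highest read total of the groups.

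**Figure D2:**
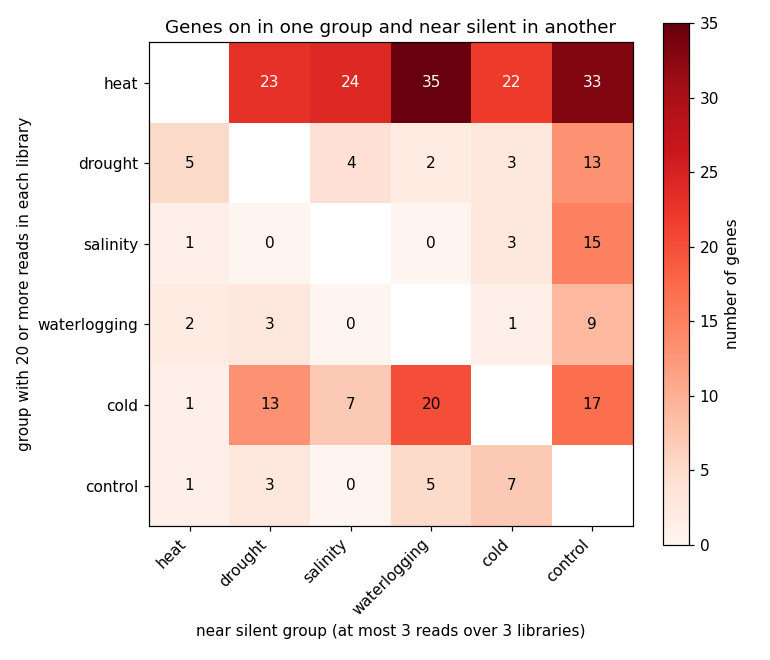
Number of genes with 20 or more reads in every library of the group on the vertical axis and at most 3 reads over the 3 libraries of the group on the horizontal axis. The heat line holds the highest counts (22 to 35), and the control line at the bottom holds 0 to 7.

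Under heat 4 genes carried nearly all reads of the set. LOC105041255 had 27126, 25944 and 26058 reads in the 3 heat libraries, 210, 195 and 167 in drought, 14, 19 and 28 in salinity, 2, 2 and 12 in waterlogging and 11, 7 and 4 in cold, against 0, 0 and 1 in control. Every heat library lay far above every drought library, and every drought library above all others. Its level under heat was 1467 ± 72.7 FPKM (SD, n = 3), which placed it at rank 46 to 54 of 30606 genes in the heat libraries. Scaled for depth, heat leaves had 73436 times as many reads as control leaves, with a 95% counting interval of 13180 to 2900600, since the control group held 1 read.

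LOC105040382 had 25037, 20406 and 22163 reads in heat libraries and 419, 326 and 192 in drought libraries, against 2, 1 and 0 in control libraries. In salinity it had 9, 28 and 26 reads, in waterlogging 3, 2 and 1, and in cold 23, 11 and 1. The pattern is that of LOC105041255: heat far above drought, drought above the rest, with no overlap. Its FPKM under heat was 1344 ± 169 (SD, n = 3), rank 52 to 64. For neither gene do the sources give a description.

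LOC105048400, which the study groups with the heat shock proteins, had 16935, 14189 and 12793 reads in heat libraries, against 0, 1 and 0 in control. It was on in drought (45, 38 and 42 reads) and salinity (31, 20 and 30 reads). Cold libraries held 20, 24 and 17 reads, of which the last missed the cut-off, and waterlogging libraries 8, 8 and 4. All 15 stress libraries thus lay above all control libraries, and the heat libraries stood far apart from those of the other stresses. Its level under heat was 864 ± 125 FPKM (SD, n = 3), rank 76 to 95.

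LOC105040002 was read almost only under heat. It had 14559, 13404 and 9943 reads in heat libraries, at most 6 in any other stress library (salinity 2), and 0 in all control libraries. With the control group held at a floor of 3 reads, heat leaves were at least 11726-fold higher. Its level was 446 ± 78.3 FPKM under heat (SD, n = 3), rank 149 to 196. Together these 4 genes made up 95.3, 93.7 and 94.0% of the reads of the 58 genes in the 3 heat libraries, and 0.397, 0.334 and 0.345% of all reads there. All 58 genes had 21 to 30 reads per library in control.

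**Figure D3:**
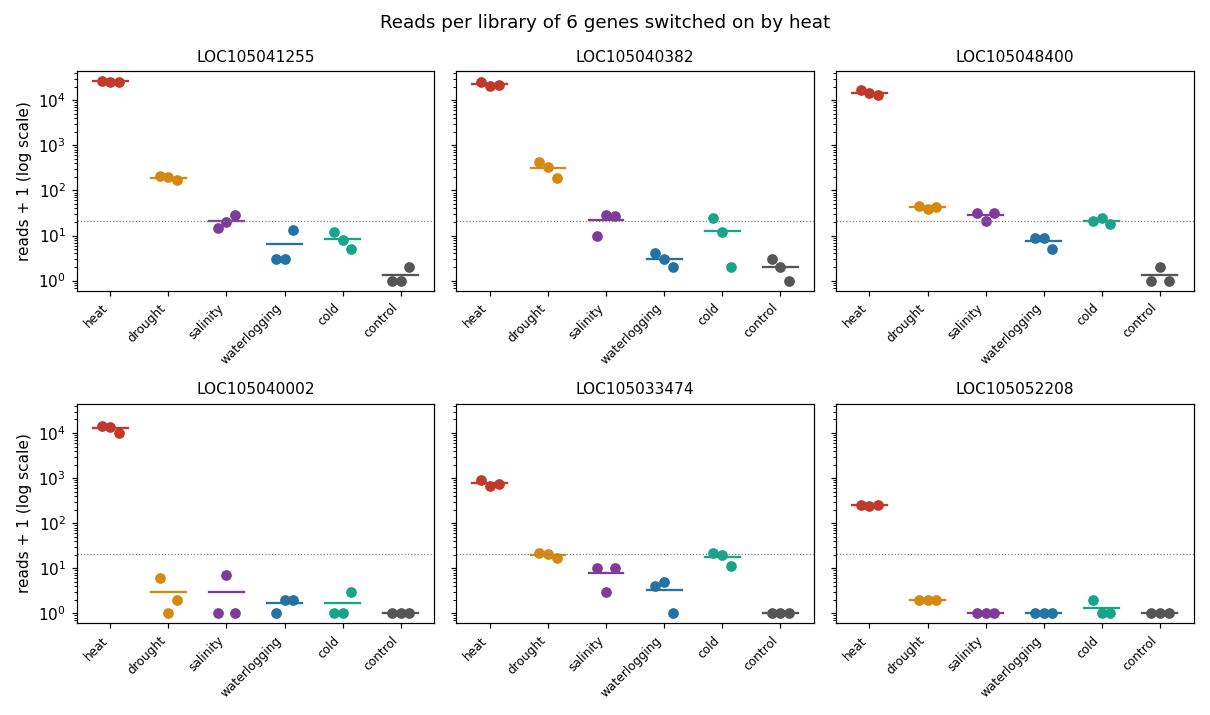
Reads per library plus 1, on a log axis, of 6 genes switched on by heat, in the 5 stresses and control (each point a library, each short line a group mean, the dotted line the cut-off of 20 reads). The 4 leading genes reach 9943 to 27126 reads in heat libraries and 0 to 2 in control libraries, and drought is second for LOC105041255 and LOC105040382.

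Below these 4, levels under heat dropped steeply. LOC105033474, a gene model of 378 bases, had 911, 683 and 736 reads in heat libraries, 21, 20 and 16 in drought and 21, 19 and 10 in cold, against 0 in control. Heat was at least 721-fold above the control floor, and drought and cold sat near the cut-off. LOC105052208 had 258, 234 and 251 reads under heat and at most 1 in any other library, with 0 in control, at least 230-fold above the floor. LOC105045723 had 154, 135 and 194 reads under heat, at most 11 in the other stresses and 0 in control.

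Described genes among those on under heat alone were few. LOC105048567, described as luminal-binding protein 5-like, belongs to the Hsp70 chaperones of the endoplasmic reticulum. It had 65, 177 and 265 reads in heat libraries and at most 2 in any other stress library, against 1, 0 and 0 in control, so all 3 heat libraries were high but unequal. LOC105050327, described as aldehyde dehydrogenase 2B7, of a family that oxidises reactive aldehydes, had 264, 45 and 85 reads under heat and at most 6 in any other library. Its spread over the heat libraries, a coefficient of variation of 91.3%, was the widest of the 33 genes on under heat, whose median was 21.2%. LOC105035689, annotated to UDP-glycosyltransferase activity, the transfer of sugars to small molecules, lay at the cut-off as given above, with up to 15 reads in other stress libraries. LOC105059654, an uncharacterized gene, had 55, 41 and 44 reads under heat, at most 7 in the other stresses and 1, 0 and 0 in control.

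Of the 33 genes on under heat 22 were on under heat alone, and of the 17 on under cold 12. Among genes on under a single stress, those of heat had the fewest reads in other stresses. The rule itself used these reads. Of the 22 on under heat alone, 3 had 0 reads in all 15 other libraries: LOC105060533 (44, 41 and 43 reads under heat), LOC105049847 (110, 28 and 73) and Novel00378 (61, 88 and 116), a gene model added by the study. A further group brought to 9 those with at most 3 reads in every other stress library, and 3 had 20 or more reads in some library of another stress. Of the 12 on under cold alone, 1 had at most 3 reads in every other stress library and 5 had 20 or more in some. Of the 6 on under salinity alone, all 6 had 20 or more reads in some other stress library.

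Genes switched on by cold alone stayed at low levels, 0.495 to 5.43 FPKM on average. LOC105038415 led with 209, 182 and 93 reads in cold libraries and at most 19 in the other stresses, against 2, 1 and 0 in control, a depth-scaled ratio to control of 120 with a counting interval of 40.9 to 585. LOC105052389 had 86, 94 and 105 reads under cold, and up to 28 under drought and 24 under waterlogging. LOC105038655 had 70, 48 and 64 reads under cold and 12, 20 and 20 under heat, with at most 3 elsewhere. Cold was the highest group for each of them, without overlap with another group. They were chosen as on under cold alone and for their level there, which favours this order.

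LOC105037670, described as a lysine-specific demethylase JMJ25-like, a kind of enzyme that takes methyl groups off histones, had 75, 39 and 62 reads in cold libraries and at most 14 in the other stresses, against 1, 2 and 0 in control. LOC105044615 had 63, 38 and 70 reads under cold and 24, 21 and 4 under waterlogging. LOC105045402 was the most exclusive of the cold genes, with 49, 33 and 32 reads under cold, at most 2 in any other stress library and 0 in control. LOC105061278, an uncharacterized gene, had 45, 51 and 39 reads under cold and at most 6 elsewhere. LOC105040224, the second gene annotated to UDP-glycosyltransferase activity, had 41, 22 and 24 reads under cold and 14, 16 and 11 under heat. In the RefSeq gene order of assembly EG11, used here for names and neighbours only, 3 genes lie between it and LOC105035689, the one on under heat.

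LOC105042625 shows how far a label of 1 stress can be from a difference. It counted as on under cold alone with 22, 35 and 58 reads. Salinity libraries held 70, 14 and 64 reads, drought 19, 9 and 55, and waterlogging 19, 17 and 34, so those groups overlap with cold and missed the rule by 1 or 2 libraries each. Scaled for depth, cold had the lowest mean of these groups, 1.46 CPM. The means were 2.83 CPM in salinity, 1.64 in waterlogging and 1.63 in drought.

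The genes on under salinity alone were read in the other stresses of water supply as well. LOC105049193, annotated to xyloglucan metabolism, the remodelling of a cell wall polymer, had 54, 28 and 34 reads in salinity libraries, 19, 18 and 17 in drought, 13, 6 and 21 in waterlogging, 7, 22 and 15 in heat and 5, 0 and 1 in cold, against 0, 0 and 2 in control. LOC105055856, which the study draws among osmoprotectant genes, that is, genes for small solutes that hold water in the cell, had 33, 13 and 11 reads in drought and 25, 23 and 14 in waterlogging beside its 32, 21 and 25 in salinity. LOC105038311 had 44, 31 and 34 reads in salinity, 17, 33 and 39 in drought and 17, 54 and 20 in waterlogging. For each of these genes the salinity libraries overlapped with another stress or lay within a few reads of it, while cold and control lay below it. LOC105057001 had 22, 23 and 27 reads in salinity and 53, 16 and 29 in cold, where 1 library missed the cut-off, and these libraries overlap.

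A group of 4 genes were at 0 in some libraries of a group and high in others of the same group. What set these libraries apart was not tested. LOC105061242 had 266, 257 and 283 reads in salinity libraries. Under drought it had 291, 194 and 0 reads, under heat 61, 0 and 95, under waterlogging 190, 119 and 0, and under cold 54, 16 and 2, against 1, 0 and 1 in control. LOC105061241, whose gene number is next to it, was at 0 in the same heat, drought and waterlogging libraries, with 43, 64 and 41 reads in salinity, 75, 35 and 0 in drought, 25, 0 and 28 in heat, 37, 19 and 0 in waterlogging and 15, 4 and 0 in cold, against 0 in control. Whether the pair shares reads cannot be told from the tables.

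The 2 genes on under waterlogging alone behaved likewise. LOC105032992, uncharacterized, had 205, 178 and 188 reads in waterlogging libraries and LOC105035040 had 302, 177 and 197. Outside waterlogging, both were read in salinity replicate 2 (351 and 344 reads) and cold replicate 2 (266 and 110 reads), while the other libraries held 0 to 2 reads, control included. In the RefSeq order 17 genes lie between them. Without these 4 genes the set has 54 members, 13 on under salinity and 7 under waterlogging. Over all genes, 89 (0.291%) had 0 reads in 1 library and 50 or more in another of the same group, against 4 of the 58. These 4 make 2 pairs of like pattern, the compared genes were not matched for reads, and no difference was tested.

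**Figure D4:**
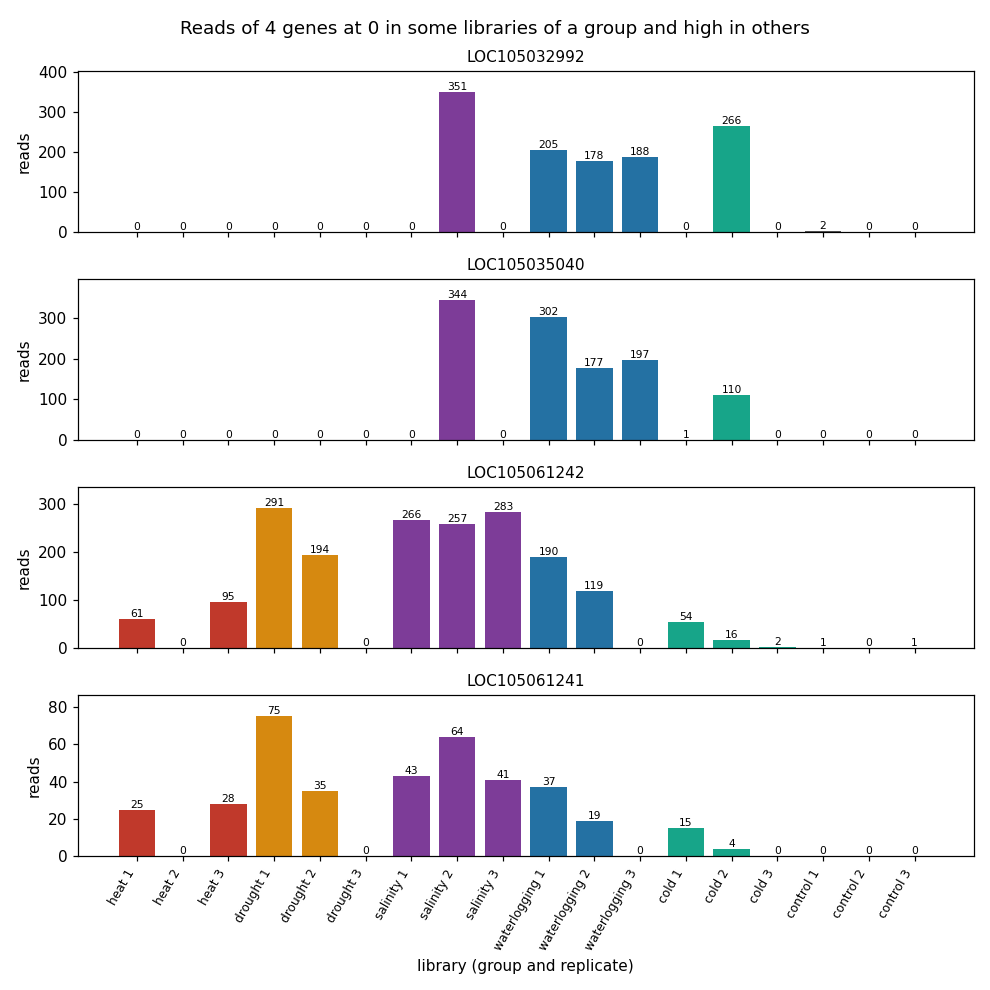
Reads in each of the 18 libraries (bars, coloured by group) of 4 genes that are at 0 in some libraries of a group and high in others. LOC105032992 and LOC105035040 are read in the 3 waterlogging libraries, salinity 2 and cold 2. LOC105061242 and LOC105061241 are at 0 in heat 2, drought 3 and waterlogging 3.

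Drought alone switched on LOC105051035, with 63, 33 and 34 reads in drought libraries, 21, 12 and 8 in salinity and at most 16 elsewhere in the stresses, against 0 in control. The remaining 15 genes were on in 2 or more stresses. For these the stresses were compared with each other by a test. The rule asked for 20 reads in each and used no difference between them. The same counts did decide which genes entered each pair, so genes low in either stress were left out. The shares of all genes called, given below, come from genes not selected in this way, and no excess over them is read. There were 51 comparisons, for 10 pairs of stresses. A difference was called at an adjusted p under 0.05 and at least 2-fold in edgeR's quasi-likelihood test, with p-values adjusted by Benjamini-Hochberg over all 23830 genes tested in each pair. In all, 21 comparisons were called, on 9 genes. Most of these calls fell on LOC105046841 and Novel00769, and whether these gene models share reads cannot be told. The comparisons also share libraries with each other.

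Between heat and drought, 6 of the 9 genes on in both differed, 3 higher in heat and 3 higher in drought, where 16.5% of all genes were called and 8.18% were called higher in heat. LOC105048400, the heat shock gene, was higher in heat by 8.16 on the log2 scale (SE 0.25, adjusted p = 4.79e-11), LOC105041255 by 6.82 (SE 0.35, adjusted p = 5.25e-09) and LOC105040382 by 5.90 (SE 0.42, adjusted p = 1.35e-07). In the other direction were both genes on in all stresses, and LOC105056761, at 2.57 ± 1.14 CPM in heat and 5.66 ± 0.64 CPM in drought (SD, n = 3 each; log2 difference -1.13, SE 0.38, adjusted p = 0.0249). That call was lost with library totals in place of TMM, and without heat replicate 1 or drought replicate 2 or 3. LOC105032270 had 82, 71 and 206 reads in heat and 220, 253 and 118 in drought, which overlap, and the difference of -1.03 had an interval of -2.16 to 0.10 and an adjusted p of 0.128. It was called, at -1.65, without heat replicate 3.

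Between heat and salinity, 3 of 6 genes differed, against 14.1% of all genes. LOC105048400 was higher in heat, at 692 ± 119 CPM against 1.51 ± 0.48 CPM in salinity (SD, n = 3 each; log2 difference 8.85, adjusted p = 1.27e-11). LOC105056761 was lower in heat, with 26, 66 and 73 reads in heat libraries and 180, 130 and 183 in salinity libraries, a log2 difference of -1.83 (SE 0.38, adjusted p = 0.0015). Novel00769 was lower too, as given below. LOC105050824, the second gene of the set annotated to xyloglucan metabolism, had 28, 27 and 60 reads in heat, 58, 28 and 27 in drought and 22, 30 and 37 in salinity, against 0, 3 and 0 in control. These 3 stresses overlapped, and no difference between them was called. The interval of heat minus salinity ran from -1.02 to 1.33.

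The 2 genes on in all 5 stresses had the highest FPKM of the set in every stress other than heat. LOC105046841 had 373, 1141 and 313 reads in heat libraries, 1718, 1886 and 2724 in drought, 1909, 1212 and 839 in salinity, 4054, 2185 and 810 in waterlogging and 105, 194 and 229 in cold, against 0, 1 and 0 in control. The gene model Novel00769, added by the study, had 419, 960 and 439 reads in heat, 1701, 1953 and 2826 in drought, 2777, 2168 and 1489 in salinity, 5908, 3113 and 1324 in waterlogging and 484, 793 and 881 in cold, against 0, 1 and 2 in control. All 15 stress libraries lay above all control libraries by 2 orders of magnitude or more for both genes, and replicates of 1 stress differed widely, from 810 to 4054 reads of LOC105046841 under waterlogging. Neither gene could be placed in the RefSeq order, the reads of 1 per read of the other ranged from 0.217 to 1.19 over the stress libraries, and whether the 2 models share reads cannot be told from the tables.

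Both genes were lower in cold than in the 3 stresses of water supply. LOC105046841 was higher than in cold by 4.21 (SE 0.62, adjusted p = 4.04e-05) in drought, 3.48 (SE 0.61, adjusted p = 0.000196) in salinity and 4.54 (SE 0.63, adjusted p = 2.46e-05) in waterlogging. For Novel00769 these differences were 2.22 (adjusted p = 0.00103), 2.14 (adjusted p = 0.00147) and 3.07 (adjusted p = 9.19e-05). The shares of all genes called were 26.9% between drought and cold, 23.3% between salinity and cold and 24.8% between waterlogging and cold. In these pairs, the members called were 2 of 2, 2 of 2 and 2 of 3, the same 2 genes each time. The third gene on in waterlogging and cold, LOC105039094, annotated to protein dephosphorylation, had 45, 61 and 20 reads in waterlogging and 27, 43 and 138 in cold, which overlap, with an interval of -1.65 to 1.82.

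Heat, too, lay below the stresses of water supply, in 5 of the 6 comparisons by a called difference. LOC105046841 averaged 28.6 ± 21.5 CPM in heat against 124 ± 41.4 in drought and 156 ± 105 in waterlogging (SD, n = 3 each), with log2 differences of -2.12 to drought (SE 0.56, adjusted p = 0.0075) and of -2.44 to waterlogging (SE 0.57, adjusted p = 0.00323). Its difference from salinity, -1.39, was not called (adjusted p = 0.0605), but was without heat replicate 2, salinity replicate 3 or waterlogging replicate 1 or 3. Novel00769 differed in each case: -2.16 from drought (adjusted p = 0.00216), -2.08 from salinity (adjusted p = 0.0031) and -3.01 from waterlogging (adjusted p = 0.000214). Between heat and waterlogging 2 of 4 genes were called, against 16.0% of all genes.

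Between heat and cold 1 gene of the pair was called, and whether the pair's differences were unequal was not tested. LOC105046841 was higher in heat than in cold, at 28.6 ± 21.5 and 6.71 ± 2.54 CPM (SD, n = 3 each), a log2 difference of 2.09 (SE 0.58, interval 0.83 to 3.36, adjusted p = 0.00732) that was no longer called, at 1.28, without heat replicate 2, its highest heat library. Novel00769 was at 28.5 ± 14.2 CPM in heat and 27.4 ± 8.49 CPM in cold, and the difference of 0.06 had an interval of -0.95 to 1.06. Besides LOC105046841, LOC105059433 was called in this pair, with 132, 27 and 67 reads in heat and 24, 29 and 21 in cold (1.93, SE 0.57, adjusted p = 0.0105). That call was lost, at 1.22, without heat replicate 1. LOC105036547, near 0 in the 3 stresses of water supply and 0 in control, had 222, 120 and 209 reads in heat and 124, 224 and 35 in cold, which overlap and were not called (interval -0.54 to 2.18). Hence 2 of 4 genes differed, against 22.1% of all genes.

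Among drought, salinity and waterlogging few differences were called. Between drought and salinity it was 1 of 9 genes, against 2.77% of all genes: LOC105038404, annotated to transmembrane transport, had 128, 126 and 77 reads in drought and 43, 24 and 27 in salinity (1.85, SE 0.52, adjusted p = 0.0399). Its call was lost with the replicate number as a block (1.85, adjusted p = 0.0618), when any drought replicate was left out, without salinity replicate 2 or 3, and without cold or control replicate 2, with adjusted p values of 0.0136 to 0.133 over the alternatives. Between drought and waterlogging it was 1 of 6 genes, against 7.02% of all genes: LOC105055962, a miscellaneous RNA in RefSeq, had 247, 189 and 185 reads in drought, 155, 62 and 111 in salinity and 32, 42 and 97 in waterlogging. Drought was above waterlogging by 1.56 (SE 0.46, adjusted p = 0.026), a call lost without drought replicate 1 or 2 or without waterlogging replicate 1 or 2. In this pair LOC105048933 was called by DESeq2 and without heat replicate 2.

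Between salinity and waterlogging 0 of 6 genes were called by edgeR, against 0.621% of all genes. At an unadjusted p under 0.05 there were 2, and the Wald test of DESeq2 called the same number. These were LOC105048933, annotated as a pseudogene, with 45, 22 and 36 reads in salinity and 96, 58 and 53 in waterlogging (-1.28, interval -2.18 to -0.37), and LOC105056761, with 180, 130 and 183 reads in salinity and 42, 64 and 59 in waterlogging (1.28, interval 0.47 to 2.10). LOC105059333 had 84, 147 and 152 reads in heat, 124, 175 and 193 in drought, 258, 103 and 225 in salinity and 49, 179 and 129 in waterlogging, against 0, 0 and 3 in control. Its 4 stresses overlapped throughout and none of their pairs was called.

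**Figure D5:**
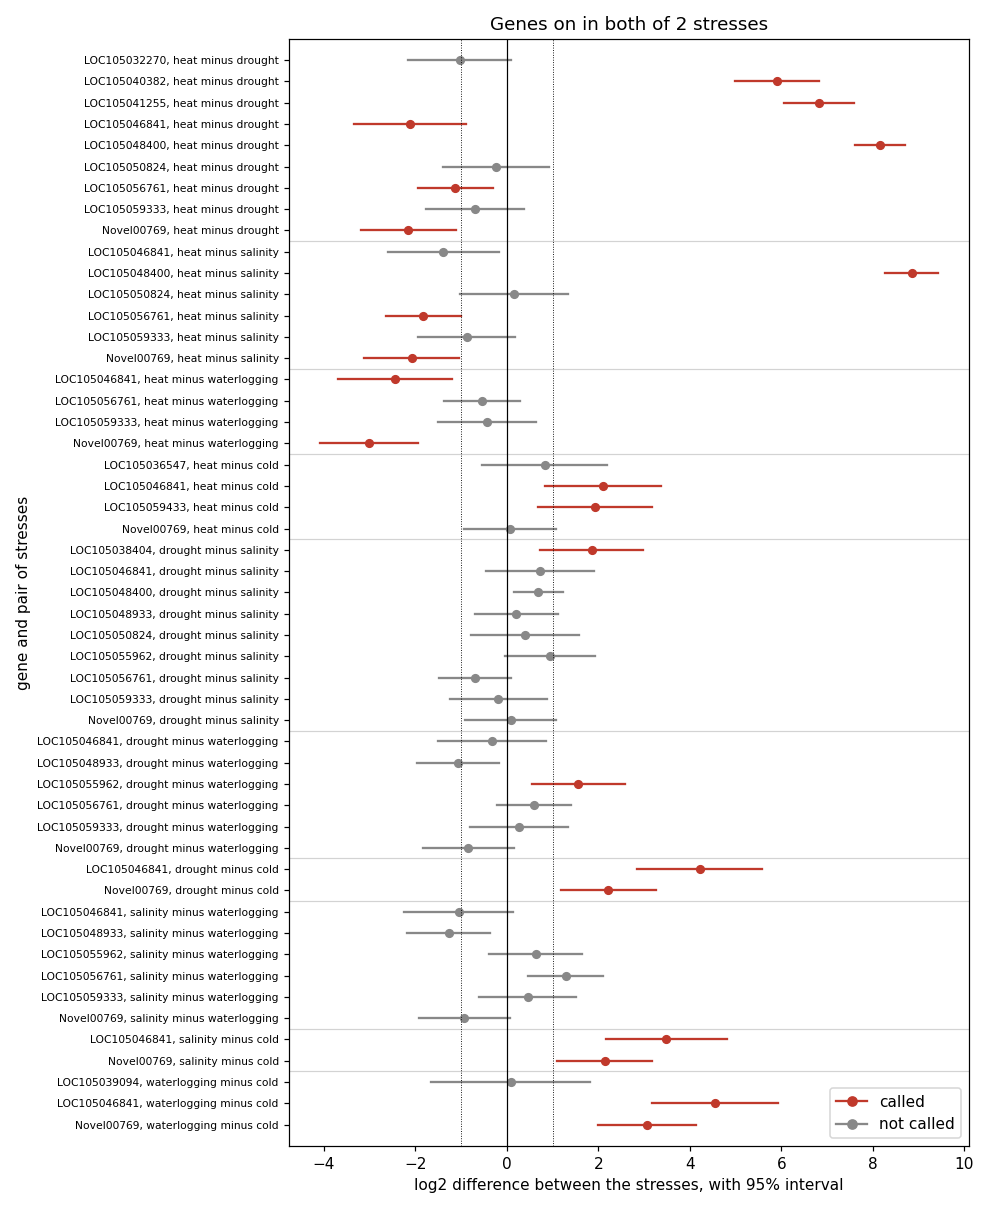
Difference between stresses of each gene on in both, on the log2 scale, the stress named first minus the second. Lines are 95% intervals made from the SE of the edgeR fit (red if called, grey if not called, dotted lines at a 2-fold difference). The 4 values above 5 belong to LOC105048400, LOC105041255 and LOC105040382 and have heat on top; the 6 red intervals against cold in the lower part have drought, salinity or waterlogging on top.

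Against control the fit called 48 of the 58 genes higher in heat, 32 in drought, 33 in salinity, 31 in waterlogging and 37 in cold. Of all genes tested, 11.5, 10.7, 10.5, 12.0 and 13.1% were called higher in these stresses. Since the genes were picked for few control reads, nothing is read from these counts.

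Traits that the rule did not name set the genes in context. Of the 58, 5 are gene models added by the study (8.62%, against 2.80% of all genes). Of the others 45 matched the RefSeq table of assembly EG11, with 42 protein-coding genes, 2 pseudogenes and 1 miscellaneous RNA. Gene length, as recovered from the deposited FPKM, was 297 to 3566 bases with a median of 1064, against a median of 1529 for all genes with a length. The rule counted raw reads, which depend on gene length, and all genes include unread ones, so neither contrast is independent of the rule. Replicates, compared on the counts that the rule used, were less alike than for other genes read at 20 or more reads in each library. The median coefficient of variation was 21.2% under heat, 26.2% under drought, 33.7% under salinity, 41.3% under waterlogging and 27.4% under cold, against 10.9, 10.8, 11.8, 14.5 and 10.3% for all such genes. The read counts of the compared genes were not matched. For genes on in a single stress, the lowest library had a median of 46 reads under heat, 35 under cold and 29.5 under salinity.

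Of the 9 gene ontology lists of the study that were looked up whole, only that of xyloglucan metabolism held any of the 58 genes, 2 of its 17. None of the 12 genes listed for response to heat did, although 11 of those 12 were called higher under heat: the lowest had 9 reads in control. The study drew these lists up on the same libraries.

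Of the 58 genes, 45 could be placed in the RefSeq order. For these, the nearest gene on each side that the deposited counts hold was compared with control under the same stress. Neighbours that were themselves among the 58 would have been left out. Under heat 12 of 32 such neighbours tested were called higher than in control (37.5%, against 11.5% of all genes), under drought 5 of 14 (against 10.7%), under salinity 4 of 16 (against 10.5%), under waterlogging 4 of 9 (against 12.0%) and under cold 5 of 20 (against 13.1%). Called lower were 1 neighbour under salinity, 2 under cold and 0 under the other stresses. Whether the shares of neighbours differ from those of all genes was not tested. Beside LOC105041255 lies LOC105041256, which had 35598, 36168 and 43666 reads in heat libraries and 343, 357 and 326 in drought libraries, against 0, 2 and 4 in control, so that it missed the control cut-off. It was higher than control by 14.03 in heat (SE 0.70, adjusted p = 8.21e-10) and by 7.53 in drought (SE 0.65, adjusted p = 4.74e-07), an order of stresses like that of its neighbour.

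Beside LOC105040382 lies LOC105040381, with 8488, 7464 and 8152 reads in heat libraries and 1680, 1409 and 856 in drought libraries, against 70, 116 and 78 in control (log2 difference 6.40 in heat, SE 0.38, adjusted p = 4.91e-09). Both neighbours of LOC105048400 were higher in heat, by 2.52 (LOC105048399, adjusted p = 6.34e-05) and 4.91 (LOC105048401, adjusted p = 4.65e-06). In drought and salinity, where LOC105048400 was also on, neither was called: LOC105048399 was at -0.52 and 0.70 (adjusted p = 0.333 and 0.161) and LOC105048401 at 0.72 and 1.27 (adjusted p = 0.402 and 0.117). LOC105059334, next to LOC105059333, was higher in the same 4 stresses, by 4.67 in heat, 5.27 in drought, 5.17 in salinity and 4.43 in waterlogging, although its control libraries ranged from 18 to 378 reads. Near-identical neighbouring copies can share reads, which cannot be told from the tables.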

How the data were processed

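RNA of 18 leaf libraries was used, 3 per group, with groups taken from the sample titles. Before deposit the authors aligned paired reads with TopHat2, allowing 2 mismatches, to the published oil palm genome, and counted reads per gene with HTSeq. The deposited counts are whole numbers and not normalized. The deposited FPKM values were made by the authors from the same counts. The sources used here do not give the assembly version, the strand setting or how reads matching several places were counted, so overlapping, antisense and near-identical genes are uncertain. Library totals ran from 14839345 to 22126971 reads.

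The rule was applied to raw counts. The genes and lists were chosen with earlier results of these data known. Counts were fitted in R 4.3.3 with edgeR 4.0.16 (quasi-likelihood, 1 model of 6 groups, TMM factors 0.784 to 1.36, filterByExpr with a count of 10 and a total of 15, 23830 genes, 12 residual degrees of freedom). All 58 genes passed this filter, as a gene high in 1 group does. A call needs an adjusted p (Benjamini-Hochberg within a contrast) under 0.05 and at least a 2-fold change, and the SE is the log2 difference divided by the square root of F. The 95% intervals of differences between stresses use that SE and a t distribution with 12 degrees of freedom. The p-values come from edgeR's own test, so intervals and p-values need not match exactly. The median log2 difference of all genes was -0.05 to 0.02 in every contrast. The code was tested on simulated data. CPM are scaled to the TMM-adjusted total. Folds are bounds against a floor of 3 reads for the 3 control libraries together if these held none, and ratios with an exact 95% interval if they held 1 to 3; both cover counting error only. The 6 groups share replicate numbers, but these do not pair the samples (correlation of same-numbered deviations -0.28 to 0.26).

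Named genes are those the study describes, those on in all stresses, the 5 highest of each set of 5 or more, the extremes of each pair and the genes at the cut-offs. All others named were chosen after their values were seen. Alternatives were size factors and the Wald test of DESeq2 1.42.0, library totals, no filter, a replicate block, other cut-offs, scaled counts and each replicate left out. No promoter, protein or genome sequence was used.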

Additional observations from a re-analysis of the deposited data

How the results depend on the processing

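The number of genes followed the cut-offs. Limits of 0 and of 10 control reads gave 21 and 180 genes (heat 14 and 82, drought 3 and 48, salinity 2 and 45, waterlogging 2 and 22, cold 4 and 70, a single stress 18 and 128). Limits of 10 and of 50 reads in each stress library gave 116 and 26 (heat 53 and 17, salinity 27 and 6, waterlogging 20 and 5, cold 56 and 4, a single stress 80 and 18), with drought at 26 under the first. Scaling all counts gave 43 genes by library total (salinity 9, cold 8) and 42 by TMM (cold 4). Of the 18 and 20 genes lost, 17 each had 3 control reads, which scaling lifts over the limit. With raw control reads, alternatives chosen after seeing the data, TMM scaling gave 16 genes for waterlogging and 11 for cold.

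With each replicate left out the set held 58 to 106 genes (heat 33 to 55, drought 13 to 27, salinity 15 to 33, waterlogging 9 to 17, cold 17 to 34, a single stress 40 to 78). The upper ends arose without a control library, since the limit of 3 reads then covers fewer libraries (103, 89 and 106 genes without control replicate 1, 2 and 3), except for waterlogging, whose 17 arose without waterlogging replicate 3. Of the differences between stresses, 16 of the 21 calls held under all 23 alternatives, 25 of the 51 comparisons were called under none, and no called one changed sign. Genes called ranged from 0 to 1 for drought against salinity, 0 to 2 for drought against waterlogging and 1 to 2 for heat against cold with a replicate left out. The Wald test of DESeq2 called 2 for drought against waterlogging and 2 for salinity against waterlogging. Groups share replicate numbers that do not pair the samples (12 of 45 same-numbered and 28 of 90 different-numbered correlations were over 0.1). The replicate block called 0 genes for drought against salinity (LOC105038404 at 1.85, adjusted p = 0.0618) and changed no other call of the 51. It called 4764 genes for heat, 4193 for drought, 3670 for salinity, 4606 for waterlogging and 5942 for cold against control.

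Library totals in place of TMM moved the median of all genes against control to -0.14 in heat, -0.33 in drought, -0.36 in salinity, -0.46 in waterlogging and 0.31 in cold. The share of calls that were higher was then 45.2, 39.5, 38.4, 28.9 and 71.9%, against 57.0, 60.8, 68.2, 61.5 and 52.2% with TMM. At 0 to 3 control reads, a gene's silence cannot be told from low transcription at this depth.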

Other observations

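Libraries of 1 group disagreed on whether a gene was read at all for 89 genes of the whole table at 50 or more reads in the higher library, for 257 at 20 or more and for 40 at 100 or more. Of the 89, 53 did so in 1 group, 19 in 2, 9 in 3, 4 in 4 and 4 in 5. LOC105036243, chosen after its values were seen, had 351, 0 and 0 reads in waterlogging libraries, 235, 0 and 249 in cold, 1, 447 and 0 in salinity and 1, 0 and 281 in drought, against 0, 1 and 124 in control.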
